A study of Rattus norvegicus with 12 samples.

Results

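Sod1 (ENSRNOG00000002115), Sod2 (ENSRNOG00000019048) and Cat (ENSRNOG00000008364) encode the core enzymes that remove superoxide and hydrogen peroxide from liver cells. These 3 rows of the FPKM table (a level of fragments corrected for gene length and for sequencing depth) were chosen by gene identifier. The choice was made with earlier results of these data known. The 3 identifiers were found among the 34194 in the table, and all 3 passed the filter on low values that left 11854 genes for testing. The table lists identifiers without gene symbols, so other genes of the same pathway, such as the extracellular superoxide dismutase, the copper chaperone of Sod1 and the glutathione peroxidases, were not analysed here.

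RNA was sequenced from whole liver of male Wistar rats killed after 20 weeks, in 4 groups with 3 livers each. Control rats received saline into the peritoneum and drank water, whereas NDEA rats received 25 mg/kg N-nitrosodiethylamine (NDEA, a liver carcinogen activated by hepatic cytochrome P450) in 2 weekly injections during weeks 2 to 9, with water to drink. NDEA+CFT-1 rats had the same NDEA injections and drank an infusion of CFT-1, a tea variety rich in epigallocatechin gallate, for 20 weeks, and NDEA+FYT rats had the same injections and drank an infusion of a common tea, FYT (Fuyun6). No group drank tea without NDEA, so the tea groups can be set against Control only with the injections included, and whether a liver piece was tumour or surrounding tissue is not given in the sources used here. The 9 livers of the 3 injected groups are called injected below.

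Superoxide dismutases convert superoxide into oxygen and hydrogen peroxide, and catalase splits hydrogen peroxide into water and oxygen. Sod1 is the copper and zinc enzyme of the cytosol, Sod2 is the manganese enzyme of the mitochondrial matrix, and catalase is a haem enzyme of the peroxisome that hepatocytes make in large amounts. The transcription factor Nrf2 raises many antioxidant genes through antioxidant response elements, and forkhead box O factors are known to act on Sod2 and Cat. The study also assayed superoxide dismutase and catalase activity in the animals with kits. Those assays were made on protein and partly on serum, whereas the values here are liver mRNA levels, and the assay values are not used here.

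The promoters of the 3 genes are shown first because they are the stretches where such elements would be sought. Each run is the 250 bases before the RefSeq start site in the GRCr8 assembly, 5' to 3' on the gene's own strand, with every match of a searched motif in capitals.
Sod1 promoter, chr11:42942573-42942822, + strand: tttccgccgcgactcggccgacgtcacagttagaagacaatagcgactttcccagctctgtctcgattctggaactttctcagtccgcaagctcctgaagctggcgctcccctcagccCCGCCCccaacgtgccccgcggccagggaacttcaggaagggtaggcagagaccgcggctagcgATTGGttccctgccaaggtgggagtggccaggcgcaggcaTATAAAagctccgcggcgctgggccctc
Sod2 promoter, chr1:50050169-50050418, - strand: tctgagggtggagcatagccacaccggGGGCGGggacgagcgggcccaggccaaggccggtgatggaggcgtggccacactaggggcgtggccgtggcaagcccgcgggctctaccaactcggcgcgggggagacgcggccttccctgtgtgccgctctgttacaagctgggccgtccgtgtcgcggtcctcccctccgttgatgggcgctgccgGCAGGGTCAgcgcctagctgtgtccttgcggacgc
Cat promoter, chr3:110329527-110329776, - strand: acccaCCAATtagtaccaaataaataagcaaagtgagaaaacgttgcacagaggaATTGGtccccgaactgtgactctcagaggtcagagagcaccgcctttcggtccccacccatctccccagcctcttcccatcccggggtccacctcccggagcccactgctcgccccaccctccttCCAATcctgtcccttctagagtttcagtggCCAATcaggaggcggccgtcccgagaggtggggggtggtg
The motifs searched on both strands were the antioxidant response element core TGACNNNGC, the GC box GGGCGG, the TATA box TATAAA, the forkhead box O motif GTAAACA and the CCAAT box CCAAT. The Sod1 promoter held a GC box on the reverse strand 132 to 127 bases before the start, a reverse CCAAT box 68 to 64 bases before it and a TATA box 28 to 23 bases before it. The Sod2 promoter held a GC box 223 to 218 bases before the start and an antioxidant response element core on the reverse strand 35 to 27 bases before it. The Cat promoter held 4 CCAAT boxes, of which the nearest lay 40 to 36 bases before the start, and no match of the other letters searched. In 33469 rat promoters of the same length, TGACNNNGC was found in 10.1%, GGGCGG in 30.5%, TATAAA in 12.9%, GTAAACA in 3.21% and CCAAT in 34.0%. The 3 promoters held 63.2% (Sod1), 71.6% (Sod2) and 58.8% (Cat) G and C bases, against a median of 51.2% over all promoters. A match is a description of the letters only, and binding of a factor was not measured.

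Libraries differed in overall scale, and 2 of the 12 stood apart from the rest. The median correlation of a library with the other 11 over log2 levels was 0.922 for NDEA replicate 1 and 0.958 for NDEA+CFT-1 replicate 2, and between 0.965 and 0.977 for the others. Control replicate 3 came next, at 0.965, and was kept where both libraries that stood apart were left out. Median-of-ratios scaling, which divides each library by its median ratio to the average library, used factors from 0.771 (Control replicate 3) to 1.40 (NDEA replicate 1). Read totals are unknown, but the steps between low FPKM values gave relative depths from 1 (NDEA replicate 1) to 1.66 (NDEA+CFT-1 replicate 1). Since the scaling moved the median log2 difference of all genes by over 0.1 in 5 of 7 comparisons (0.20 to -0.04 for NDEA minus Control), values are given as deposited and after scaling. The liver label was not checked against marker genes, since the identifiers were not paired with symbols here.

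Sod1 mRNA was high in every liver and was lower in all 3 NDEA livers than in any Control liver. The FPKM values of Sod1 were 1625, 1535 and 1486 in Control, 1470, 1352 and 1389 in NDEA, 1586, 1860 and 1440 in NDEA+CFT-1, and 1418, 1374 and 1739 in NDEA+FYT, in the order of replicates 1 to 3. The Control and NDEA ranges lay next to each other without overlapping, whereas the tea groups spanned most of the range, with the highest level in NDEA+CFT-1 replicate 2. The group means were 1548 ± 70.5 (SD, n = 3) in Control, 1404 ± 60.4 in NDEA, 1629 ± 213 in NDEA+CFT-1 and 1510 ± 199 in NDEA+FYT. The NDEA mean was therefore lower than the Control mean by an amount larger than the SD of either group, and the exact two-sided permutation test gave p = 0.1, the smallest value that 3 livers against 3 allow. Such a lower range without overlap was found for 1.52% of the genes tested in this comparison. That share depended on the scale: the median deposited log2 difference of all genes was 0.20, and after scaling the share was 6.69%. In bulk liver, fewer cells of a type and less RNA per cell cannot be told apart.

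After median-of-ratios scaling, Sod1 was 1651, 1521 and 1926 in Control, 1047, 1381 and 1364 in NDEA, 1584, 2271 and 1479 in NDEA+CFT-1, and 1269, 1272 and 1636 in NDEA+FYT. The NDEA livers again lay below all Control livers, and now also below all NDEA+CFT-1 livers, and both separations had an exact permutation p = 0.1. After scaling, 6.69% of genes were lower without overlap in NDEA than in Control, and 11.1% were higher without overlap in NDEA+CFT-1 than in NDEA. The scaled group means were 1699 ± 207 in Control, 1264 ± 188 in NDEA, 1778 ± 430 in NDEA+CFT-1 and 1392 ± 211 in NDEA+FYT. With the FPKM of each library scaled to sum to 1000000, an alternative added after seeing the data, Sod1 was 2240 ± 118 in Control, 2056 ± 10.4 in NDEA, 2330 ± 205 in NDEA+CFT-1 and 2243 ± 296 in NDEA+FYT, so that the NDEA livers were again lowest in the mean. The order of the 4 groups, with NDEA+CFT-1 highest and NDEA lowest, was the same as deposited and after median-of-ratios scaling. Each pair of neighbours in it differed by less than the larger of their SDs, except Control and NDEA+FYT after scaling, whose ranges overlapped (exact permutation p = 0.2).

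Sod2 mRNA, at a much lower level, was the steadiest of the 3 genes, and its group order depended on the scaling. The FPKM values of Sod2 were 64.5, 67.6 and 58.1 in Control, 70.2, 62.3 and 73.2 in NDEA, 66.6, 73.0 and 71.4 in NDEA+CFT-1, and 78.8, 76.3 and 70.7 in NDEA+FYT. All 3 NDEA+FYT livers lay above all Control livers, while the NDEA and NDEA+CFT-1 livers overlapped both. The means were 63.4 ± 4.84 in Control, 68.6 ± 5.62 in NDEA, 70.3 ± 3.33 in NDEA+CFT-1 and 75.3 ± 4.11 in NDEA+FYT (SD, n = 3). In that order of means, neighbours differed by less than the larger SD, except NDEA+FYT and NDEA+CFT-1, whose ranges overlapped (exact permutation p = 0.3). NDEA+FYT was 18.7% above Control with an exact permutation p = 0.1, and 18.8% of all genes tested were likewise higher without overlap in that comparison. Over the injected livers, 8 of 9 lay above the Control mean, which was not counted over all genes, and the injected mean was 12.6% higher. The exact permutation test gave p = 0.0455 (220 assignments, not corrected for the 21 tests of this kind). Over all genes tested, the median deposited log2 difference in this comparison was 0.14, and that of Sod2 was 0.17.

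Neither of these Sod2 differences from Control held after median-of-ratios scaling. Scaled Sod2 values were 65.6, 67.0 and 75.3 in Control, 50.0, 63.7 and 71.9 in NDEA, 66.5, 89.2 and 73.3 in NDEA+CFT-1, and 70.5, 70.7 and 66.6 in NDEA+FYT. All group ranges overlapped Control, the injected and Control means differed by -0.208% (exact permutation p = 0.945), and NDEA+FYT against Control gave p = 1. With each library scaled to a sum of 1000000, however, Sod2 was 91.7 ± 6.41 in Control, 100.5 ± 6.75 in NDEA, 100.9 ± 4.11 in NDEA+CFT-1 and 111.9 ± 7.34 in NDEA+FYT, which is the order of the deposited means. The lowest median-of-ratios value was that of NDEA replicate 1 and the highest that of NDEA+CFT-1 replicate 2, the libraries that stood apart. Scaled Sod1 had the same lowest and highest libraries. On that scale, NDEA replicate 1 was the lowest library for 53.0% of the 1446 genes averaging 50 FPKM or more. NDEA+CFT-1 replicate 2 was the highest for 46.6% of them. Over all genes tested, these shares were 26.3% and 22.2%, so such extremes were not particular to the dismutases. Sod2 has a pseudogene in the rat annotation, Sod2-ps1, and reads that fitted both places equally well would have been dropped when only uniquely mapped reads were counted.

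**Figure D1:**
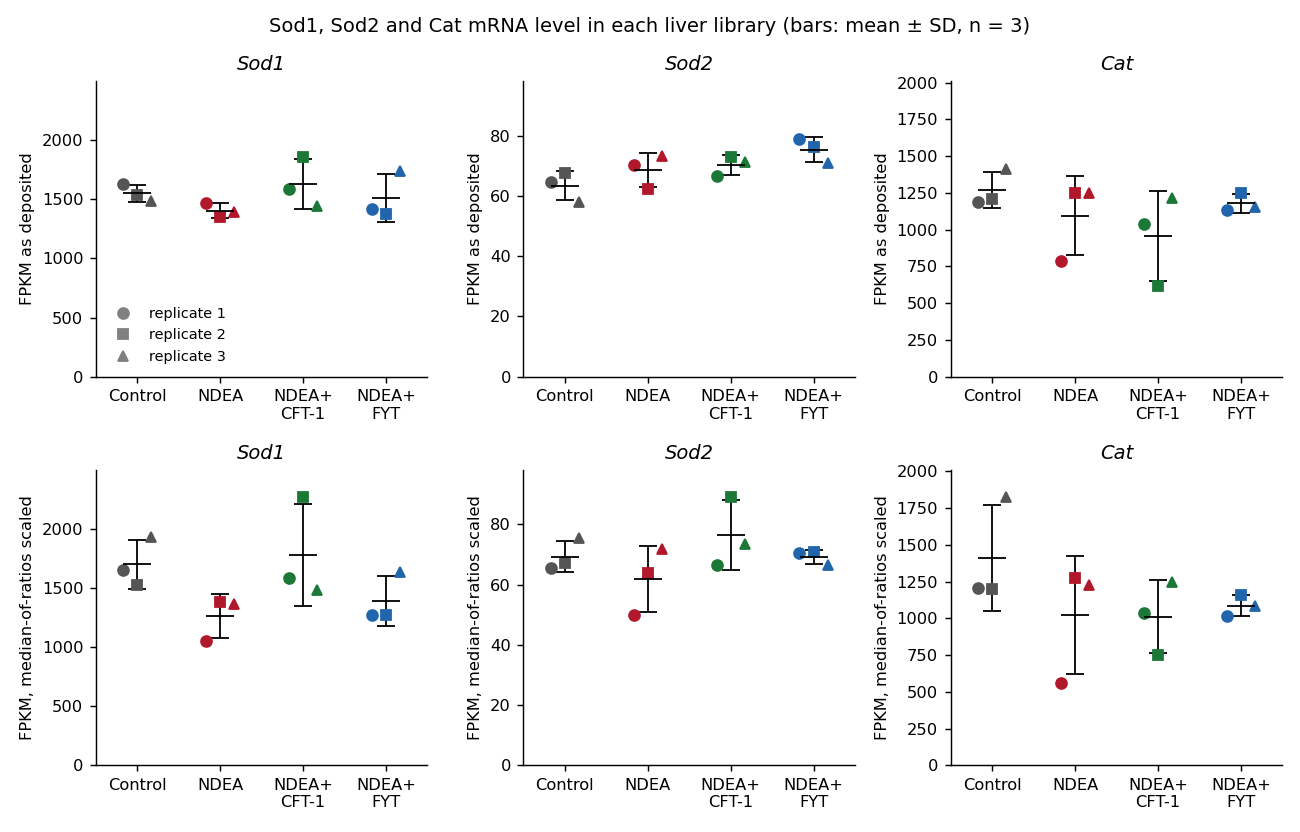
mRNA level of Sod1, Sod2 and Cat in FPKM for each of the 12 livers, by group, as deposited (upper row) and after median-of-ratios scaling (lower row), where points are livers, marker shapes are replicate numbers and bars are mean ± SD of 3. The NDEA points of Sod1 lie below the Control points in both rows, and the lowest deposited Cat values are 785 in NDEA replicate 1 and 616 in NDEA+CFT-1 replicate 2.

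Cat mRNA varied most of the 3, and its low values came from the same pair of livers. The FPKM values of Cat were 1189, 1208 and 1410 in Control, 785, 1251 and 1253 in NDEA, 1035, 616 and 1216 in NDEA+CFT-1, and 1134, 1251 and 1152 in NDEA+FYT. NDEA+CFT-1 replicate 2 and NDEA replicate 1 were the lowest of the 12, and the remaining injected livers lay between 1035 and 1253, overlapping the Control range. The means were 1269 ± 122 in Control, 1096 ± 270 in NDEA, 956 ± 308 in NDEA+CFT-1 and 1179 ± 63.5 in NDEA+FYT (SD, n = 3). All 9 injected livers lay below the Control mean, which Control replicate 3 raised, and the injected mean was 15.2% lower than the Control mean (exact permutation p = 0.164). How many of all genes had every injected liver below the Control mean was not counted.

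After scaling, Cat was 1208, 1198 and 1828 in Control, 559, 1278 and 1230 in NDEA, 1034, 752 and 1249 in NDEA+CFT-1, and 1015, 1158 and 1084 in NDEA+FYT. The same 2 livers were lowest, Control replicate 3 was highest, and all 3 NDEA+FYT livers fell below all Control livers (exact permutation p = 0.1), as did 8.65% of genes in that comparison. The injected mean was 26.3% below Control on this scale, with an exact permutation p = 0.109. Control replicate 3 was not left out on this scale. Scaled to a sum of 1000000, Cat was 1836 ± 183 in Control, 1617 ± 445 in NDEA, 1385 ± 492 in NDEA+CFT-1 and 1750 ± 65.8 in NDEA+FYT. The group order, Control, NDEA+FYT, NDEA and NDEA+CFT-1 from high to low, was the same for mean FPKM on all 3 scales, and neighbours in it differed by less than the larger SD of the pair. On the log2 scale of the tests, however, the median-of-ratios mean of NDEA+CFT-1 lay 0.05 above that of NDEA.

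The 2 livers with the lowest Cat were the libraries that stood apart over all genes. Both libraries were the lowest pair for 6.03% of all genes tested as deposited and for 9.52% after median-of-ratios scaling. Among the 1446 genes whose mean FPKM reached 50, the shares were 7.68% as deposited and 4.22% after scaling. Without NDEA replicate 1 the log2 change of Cat in NDEA minus Control was -0.02 in place of -0.24, and without NDEA+CFT-1 replicate 2 that of NDEA+CFT-1 minus Control was -0.17 in place of -0.46. Without NDEA+CFT-1 replicate 2, NDEA+CFT-1 minus NDEA turned from -0.22 to 0.07, and without NDEA replicate 1, NDEA+FYT minus NDEA turned from 0.14 to -0.09. The part that RNA quality or cell makeup had in these 2 libraries was not tested.

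Over all groups, none of the 3 genes passed the test in any of 7 comparisons. limma on log2(FPKM + 1), with Benjamini-Hochberg adjustment over the 11854 genes, called 0 genes (0%) at an adjusted p under 0.05 in every comparison. At an unadjusted p under 0.05 it listed 1031 genes for NDEA minus Control (8.7%), 1494 for NDEA+CFT-1 minus NDEA (12.6%), 176 for NDEA+FYT minus NDEA (1.48%), 642 for NDEA+CFT-1 minus NDEA+FYT (5.42%), 385 for NDEA+CFT-1 minus Control (3.25%), 450 for NDEA+FYT minus Control (3.8%) and 576 for injected minus Control (4.86%). Sod1, Sod2 and Cat were in none of these lists.

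In NDEA minus Control, which asks what the carcinogen did, the log2 change of Sod1 was -0.14 (95% interval -0.51 to 0.23, adjusted p = 0.704), a fold of 0.907. Sod2 had a log2 change of 0.11 (-0.18 to 0.40, adjusted p = 0.705) and Cat had -0.24 (-0.81 to 0.33, adjusted p = 0.679). After scaling, the changes were -0.43 for Sod1 (-0.95 to 0.08, adjusted p = 0.582), -0.17 for Sod2 and -0.53 for Cat (-1.26 to 0.20, adjusted p = 0.592). Without NDEA replicate 1, the deposited change of Sod1 was -0.17. After quantile normalization, the Sod1 change was 0.0076, of the other sign. With scaling and without both libraries that stood apart, of which only NDEA replicate 1 belongs to this comparison, the changes were -0.30 for Sod1 and -0.14 for Cat. The sign for Sod2 differed between the scales, and its deposited change ran from 0.05 without Control replicate 3 to 0.18 without NDEA replicate 2.

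In NDEA+CFT-1 minus NDEA, which asks whether the CFT-1 infusion altered the injected liver, Sod1 had a log2 change of 0.21 (-0.16 to 0.57, adjusted p = 0.602), Sod2 0.04 (-0.25 to 0.33, adjusted p = 0.914) and Cat -0.22 (-0.79 to 0.35, adjusted p = 0.729). After scaling, the Sod1 change was 0.48 (adjusted p = 0.350), the Sod2 change 0.30 (adjusted p = 0.390) and the Cat change 0.05. Without NDEA+CFT-1 replicate 2, which had the highest Sod1 level, the deposited Sod1 change was 0.11. With scaling and without both libraries that stood apart, the changes were 0.16 for Sod1 and 0.04 for Sod2, against 0.48 and 0.30 with them. Sod2 turned to -0.03 on the deposited scale without NDEA replicate 2, and the sign for Cat differed between the scales. In NDEA+FYT minus NDEA the deposited changes were 0.10 for Sod1, 0.13 for Sod2 and 0.14 for Cat, and the scaled ones 0.14, 0.17 and 0.18. The adjusted p was 1.00 for all 3 genes on the deposited scale, and the interval for Cat ran from -0.43 to 0.71. With scaling and without both libraries that stood apart, the changes were 0.0098 for Sod1, 0.032 for Sod2 and -0.21 for Cat, so that the scaled size for the dismutases and the sign for Cat depended on NDEA replicate 1. The deposited Sod2 change was 0.07 without NDEA replicate 2, and that of Sod1 was -0.0077 without NDEA+FYT replicate 3.

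The direct comparison of the tea infusions, NDEA+CFT-1 minus NDEA+FYT, gave log2 changes of 0.11 for Sod1 (adjusted p = 0.949), -0.10 for Sod2 (adjusted p = 0.937) and -0.36 for Cat (-0.93 to 0.21, adjusted p = 0.899). Scaled, they were 0.34, 0.13 and -0.13. Without NDEA+CFT-1 replicate 2, the deposited changes were 0.0092 for Sod1 and -0.07 for Cat, and without NDEA+FYT replicate 3 that of Sod1 was 0.21. With scaling and without both libraries that stood apart, the changes were 0.15 for Sod1, 0.012 for Sod2 and 0.07 for Cat, so that no difference between the infusions kept its size over these choices. Against Control, the deposited changes in NDEA+CFT-1 were 0.07 for Sod1, 0.15 for Sod2 and -0.46 for Cat (-1.03 to 0.11, unadjusted p = 0.104), and those in NDEA+FYT were -0.04, 0.25 (-0.05 to 0.54, unadjusted p = 0.0905) and -0.10. After median-of-ratios scaling, they were 0.05, 0.13 and -0.48 in NDEA+CFT-1, and -0.29, 0.0011 and -0.35 in NDEA+FYT. Same-numbered livers of NDEA+CFT-1 and Control were taken as pairs, a pairing picked from these same data and not given by the labels. Between them, Cat was lower and Sod2 higher in all 3 pairs as deposited. Of all genes tested, 8.74% were lower and 16.5% higher in every pair as deposited. After median-of-ratios scaling, Cat was again lower in all 3 pairs, but Sod2 was lower in the pair of replicate 3. The share over all genes was not counted on that scale. The fit with those pairs as a block gave unadjusted p = 0.0674 for Cat (-0.97 to 0.04, adjusted p = 0.866) and 0.334 for Sod2 (adjusted p = 1.00). Since the pairs were picked from these data, these p-values and the counts of pairs cannot be taken at face value. Without Control replicate 3, Cat in NDEA+FYT minus Control was -0.03 and Sod2 in NDEA+CFT-1 minus Control was 0.09. Without NDEA+CFT-1 replicate 2, Sod1 in NDEA+CFT-1 minus Control was -0.034 and Cat was -0.17. The comparisons against NDEA share the NDEA libraries, and those against Control share the Control libraries.

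For all injected livers against Control, the changes were -0.04 for Sod1, 0.17 for Sod2 (-0.07 to 0.41, adjusted p = 0.822) and -0.27 for Cat (-0.73 to 0.20, adjusted p = 0.822). Scaled, they were -0.22, -0.01 and -0.45. Single libraries moved the deposited values to -0.0042 for Sod1 (without Control replicate 1), 0.11 for Sod2 (without Control replicate 3) and -0.17 for Cat (without NDEA+CFT-1 replicate 2). Without both libraries that stood apart, Cat was -0.10 as deposited and -0.26 after scaling, and Sod1 was -0.08 as deposited. The SE of a change between groups of 3 was 0.17 for Sod1, 0.13 for Sod2 and 0.26 for Cat.

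**Figure D2:**
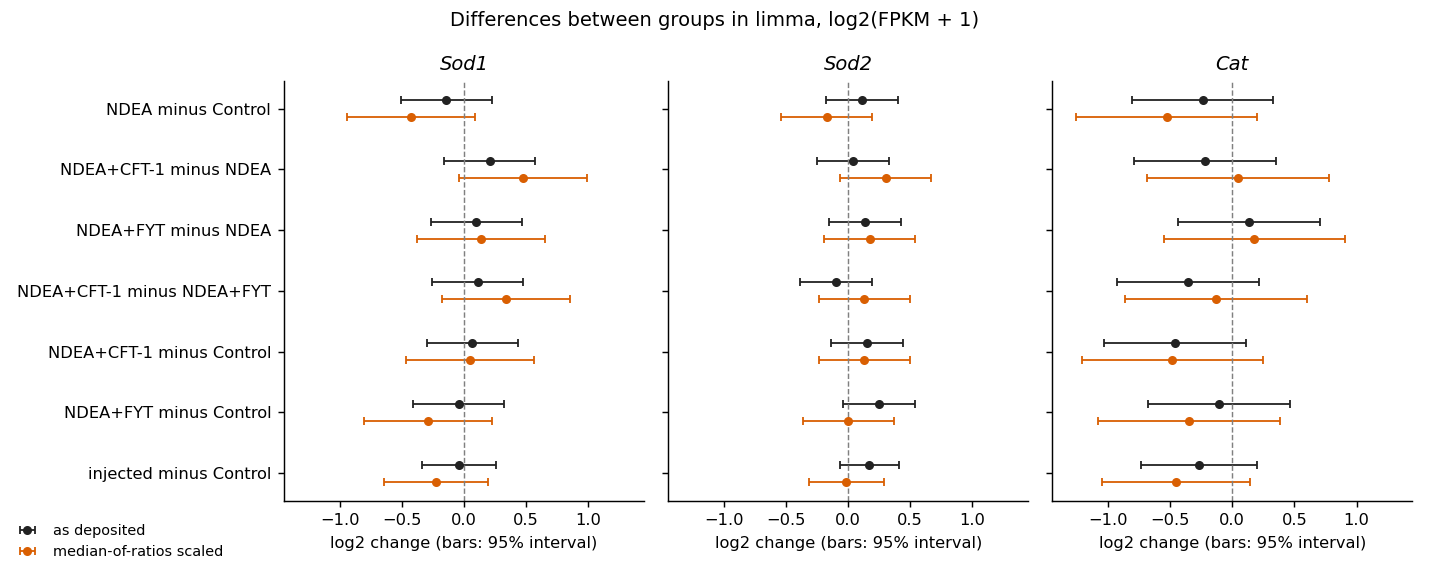
Log2 change of Sod1, Sod2 and Cat in the 7 comparisons from limma on log2(FPKM + 1), with 95% intervals, as deposited (black) and after median-of-ratios scaling (orange). Every interval includes 0, those of Cat are the widest, and the points of Sod2 for NDEA minus Control (0.11 and -0.17) lie on opposite sides of 0.

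Since a ratio between genes of the same library is free of that library's scale, the 3 genes were also set against each other. In FPKM, a level per gene length, the order was Sod1, then Cat, then Sod2 in all 12 libraries. The Cat level was 0.331 to 0.949 times the Sod1 level, with a median of 0.794. It was lowest in NDEA+CFT-1 replicate 2 and next lowest, at 0.534, in NDEA replicate 1. The Sod1 level was 18.0 to 25.6 times the Sod2 level, and the Cat level was 8.43 to 24.3 times the Sod2 level. The mitochondrial dismutase transcript was thus the least abundant of the 3 in every library, and the catalase transcript lay nearest to that of Sod1 in Control replicate 3.

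The ratio of Sod2 to Sod1 was higher in all NDEA livers than in all Control livers. The log2 ratios were -4.65, -4.50 and -4.68 in Control, -4.39, -4.44 and -4.25 in NDEA, -4.57, -4.67 and -4.33 in NDEA+CFT-1, and -4.17, -4.17 and -4.62 in NDEA+FYT. The NDEA mean was 0.25 above the Control mean (exact permutation p = 0.1, adjusted p = 0.458 over 21 ratio comparisons), and the tea groups overlapped both. Of the other 11853 genes tested, 26.2% likewise had a ratio to Sod1 that was higher without overlap in NDEA. For NDEA+FYT minus Control the difference was 0.29 (p = 0.2 by the exact permutation test), with NDEA+FYT replicate 3 inside the Control range.

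The ratio of Cat to Sod2 was lower in both tea groups than in Control. Its log2 values were 4.20, 4.16 and 4.60 in Control, 3.48, 4.33 and 4.10 in NDEA, 3.96, 3.08 and 4.09 in NDEA+CFT-1, and 3.85, 4.03 and 4.03 in NDEA+FYT. Only NDEA replicate 2 among the 9 injected livers reached into the Control range. The difference from Control was -0.61 in NDEA+CFT-1 and -0.35 in NDEA+FYT, each without overlap (exact permutation p = 0.1, adjusted p = 0.458), and -0.35 in NDEA (p = 0.4). Of the other 11853 genes, 6.07% had a ratio to Sod2 that was lower without overlap in NDEA+CFT-1 than in Control, and 8.81% in NDEA+FYT than in Control. Without NDEA+CFT-1 replicate 2, the NDEA+CFT-1 difference was -0.30, without NDEA replicate 1 the NDEA difference was -0.11, and without Control replicate 3 the NDEA+FYT difference was -0.21. For all injected livers it was -0.44 (exact permutation p = 0.0455), which did not pass adjustment over the 21 ratio comparisons (adjusted p = 0.458). Leaving out Control replicate 3 brought it to -0.30 (exact permutation p = 0.182). In the ratio of Cat to Sod1, the groups overlapped in all comparisons, and the largest difference was -0.53 in NDEA+CFT-1 minus Control, which was -0.14 without NDEA+CFT-1 replicate 2. Without both libraries that stood apart, the injected minus Control difference in that ratio was -0.02 in place of -0.23.

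**Figure D3:**
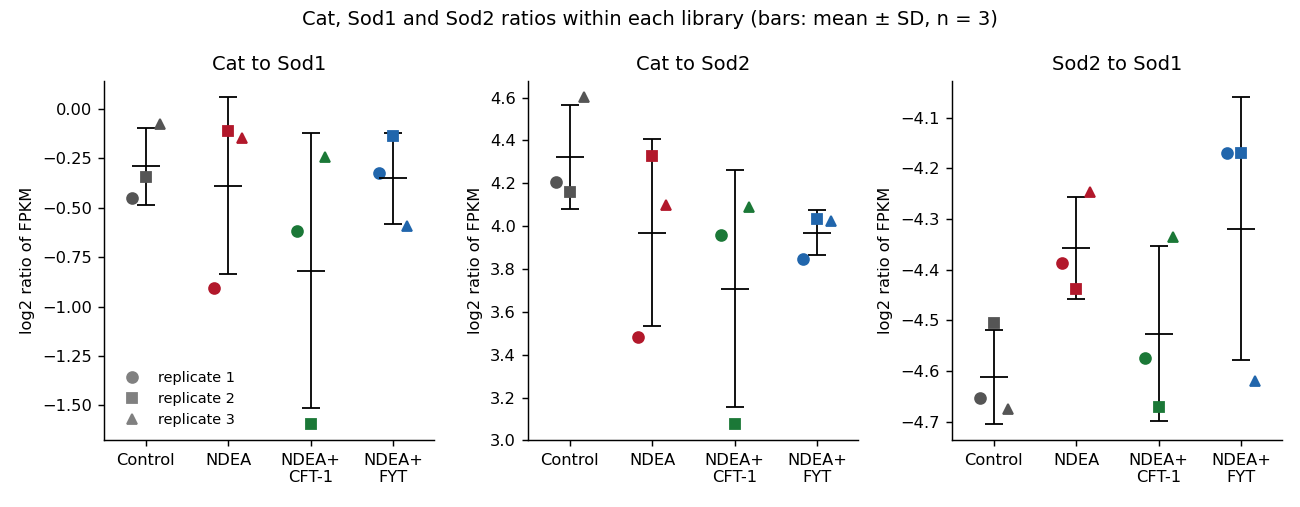
Log2 ratio of Cat to Sod1, Cat to Sod2 and Sod2 to Sod1 within each of the 12 livers, by group, where points are livers and bars are mean ± SD of 3 on axes that do not start at 0. The lowest ratios of Cat to Sod1 (-1.59) and of Cat to Sod2 (3.08) are those of NDEA+CFT-1 replicate 2.

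Across livers, the 3 genes did not rise and fall together on the deposited scale. Over the 12 livers, on log2(FPKM + 1), Pearson's r of Cat with Sod1 was -0.59 (permutation p = 0.0386, adjusted over 3 pairs 0.116) and Spearman's rho was -0.58 (permutation p = 0.0516, adjusted 0.155). Without the 2 livers farthest from the median of Sod1, NDEA+CFT-1 replicate 2 and NDEA+FYT replicate 3, r was -0.21, so that the size of the relation rests on those livers. Without the 2 libraries that stood apart r was -0.42, and for deviations from the group means over all 12 livers it was -0.71. After scaling, r between Cat and Sod1 was 0.30, of the other sign, and 0.59 without the 2 libraries that stood apart. Sod1 with Sod2 gave r = -0.03 (permutation p = 0.930) and rho = -0.22 (permutation p = 0.500), and without the same 2 livers r was -0.38. Sod2 with Cat gave r = -0.32 (permutation p = 0.313) and rho = -0.17 (permutation p = 0.604), and r was -0.03 without the livers farthest in Sod2. After scaling, r between Sod2 and Cat was 0.37, of the other sign, and 0.49 without the 2 libraries that stood apart. A pair of scaled levels shares its library's factor, and the scaled r of 0.76 between Sod1 and Sod2 was 0.09 without the 2 libraries that stood apart.

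**Figure D4:**
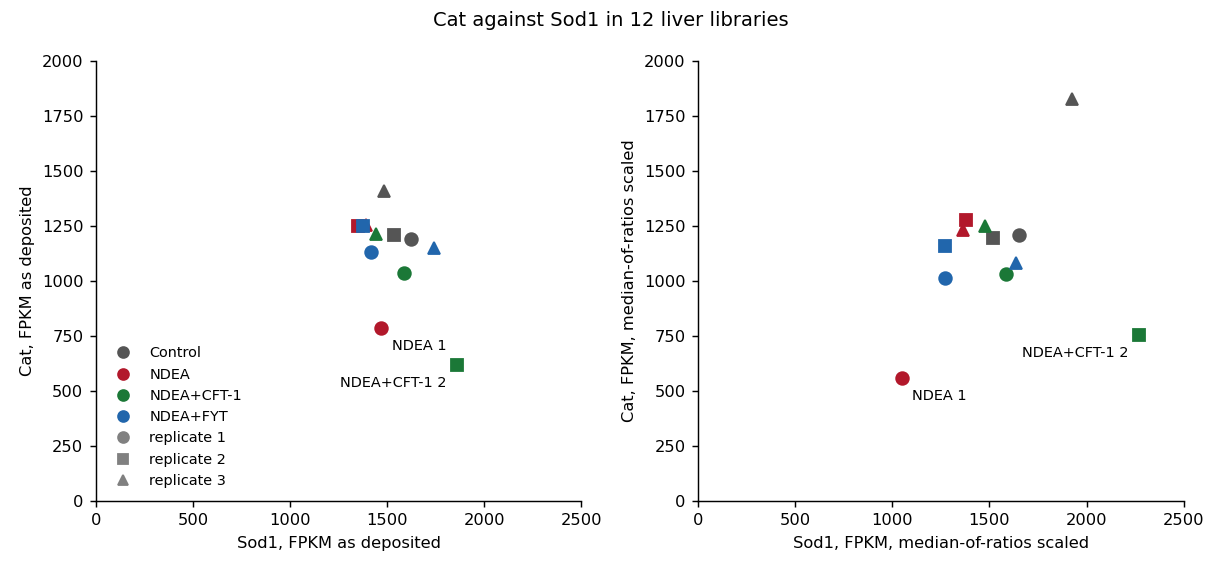
FPKM of Cat against FPKM of Sod1 in the 12 livers, as deposited (left) and after median-of-ratios scaling (right), where colours are groups and marker shapes are replicate numbers. The labelled libraries, NDEA replicate 1 and NDEA+CFT-1 replicate 2, have the lowest Cat values on both scales, and r on log2(FPKM + 1) is -0.59 for the deposited and 0.30 for the scaled values.

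Set against other genes, all 3 transcripts were abundant, and the dismutases were among the steadier ones on the deposited scale. By mean FPKM, Sod1 ranked 55, Cat 73 and Sod2 1136 in the table. The coefficient of variation over the 12 livers was 8.49% for Sod2, 10.2% for Sod1 and 19.6% for Cat. Of those 1446 abundant genes, 2.49% varied less than Sod2, 5.74% less than Sod1 and 47.4% less than Cat. After scaling, the coefficients were 13.0%, 21.1% and 27.1%, and the shares of genes that varied less were 4.63%, 32.8% and 60.3%. Between the lowest and the highest liver, the deposited level differed by a factor of 1.36 for Sod2, 1.38 for Sod1 and 2.29 for Cat.

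Group membership took 55.6% of the variance of Sod2, 30.6% of that of Sod1 and 29.0% of that of Cat, against a median of 27.6% over all genes tested. After scaling, the shares were 35.4%, 50.2% and 26.3%, against a median of 28.6%. On the deposited scale the Sod2 share was thus the largest of the 3, on the scaled one that of Sod1, and the Cat share lay near the median gene on both.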

How the data were processed

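Liver RNA of 12 rats was sequenced by the authors as read pairs, trimmed with Trimmomatic, mapped with HISAT2 to Rnor_6.0, cleared of duplicates, and counted from uniquely mapped reads (HTSeq 0.6.1, per the submitters' processing notes). The deposited values are FPKM per gene and library. The annotation release is not given in the sources used here. Whole counts were not used here, so depth in reads is unknown and precision is given by the spread between livers.

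From the FPKM, limma 3.58.1 (R 4.3.3) was fitted to log2(FPKM + 1) of genes whose mean FPKM reached 1, fitting the 4 groups together with a trend in the prior variance and Benjamini-Hochberg adjustment. Fold changes are on that scale. Single values and ratios were compared by exact two-sided permutation tests (scipy 1.17.1, Python 3.11.15), and correlations by 100000 permutations. The genes named are the 3 chosen by identifier. Members and lists were chosen with earlier results of these data known. Of 12 gene lists drawn up for the pathway and cell types (118 genes), none was analysed, since 0 identifiers could be matched to a symbol. Promoter sequences came from the RefSeq GRCr8 table, in which all 3 genes were found by symbol. The methods name 3 biological replicates per group, and p-values measure the spread between these livers. No pair of libraries held identical values. The fit was tested on simulated data. Alternatives covered scaling, pseudocount (0.1), filter (none, or 5), model, library weights and each library left out. Scaling to a fixed sum and leaving out both libraries that stood apart were added after seeing the data. The labels do not say that a replicate number pairs livers. Deviations of same-numbered livers from their group means correlated at 0.217 to 0.282 between Control and NDEA+CFT-1 (other numbers -0.248 to 0.0571), and these were taken as pairs from the data. Over all groups, same-numbered livers ran from -0.467 to 0.282, with 7 of 18 over 0.1. Livers with other numbers ran from -0.248 to 0.388, with 8 of 36 over 0.1, so a real pairing was not shown. In the other 5 pairs of groups, not every same-numbered pair was over 0.1. A paired fit of Control and NDEA+CFT-1 was added after seeing the data.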

Additional observations from a re-analysis of the deposited data

How the results depend on the processing

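No adjusted p of Sod1, Sod2 or Cat passed 0.05 under any alternative run, the lowest being 0.347 (Sod2, NDEA+FYT minus Control). Leaving out a library changed the sign of 6 values of these genes and kept that of 246, and other settings changed 20 and kept 235. The cause was not tested. FPKM gives no counting error, and the exact test with 3 livers a group cannot go below 0.1.

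Median-of-ratios scaling turned Sod2 to -0.17 in NDEA minus Control, 0.13 in NDEA+CFT-1 minus NDEA+FYT and -0.014 in injected minus Control, and Cat to 0.048 in NDEA+CFT-1 minus NDEA. Quantile normalization turned Sod1 to 0.0076 in NDEA minus Control, -0.057 in NDEA+CFT-1 minus NDEA+FYT, 0.11 in NDEA+FYT minus Control and 0.057 in injected minus Control. Library weights turned Sod1 to -0.032 in NDEA+CFT-1 minus Control, Sod2 to -0.044 in NDEA+CFT-1 minus NDEA, and Cat to 0.014 in NDEA minus Control and -0.054 in NDEA+FYT minus NDEA. Without both libraries that stood apart, Sod1 was -0.034 in NDEA+CFT-1 minus Control and Cat -0.088 in NDEA+FYT minus NDEA. With scaling as well, these were -0.14 and -0.21, Sod2 was -0.031 in NDEA minus Control and -0.0055 in injected minus Control, and in NDEA+CFT-1 minus NDEA+FYT Sod2 was 0.012 and Cat 0.068. Without both libraries, Cat to Sod1 was 0.16 in NDEA minus Control and -0.22 in NDEA+FYT minus NDEA, and Cat to Sod2 was -0.24 in NDEA+FYT minus NDEA and 0.055 in NDEA+CFT-1 minus NDEA+FYT.

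With each library left out in turn, NDEA+FYT minus NDEA ranged from -0.0077 to 0.16 for Sod1, -0.088 to 0.25 for Cat, -0.22 to 0.18 for Cat to Sod1, -0.24 to 0.18 for Cat to Sod2 and -0.037 to 0.19 for Sod2 to Sod1. NDEA+CFT-1 minus NDEA ranged from -0.029 to 0.086 for Sod2, -0.45 to 0.066 for Cat and -0.50 to 0.056 for Cat to Sod2. NDEA+CFT-1 minus Control ranged from -0.034 to 0.15 for Sod1 and -0.011 to 0.16 for Sod2 to Sod1. NDEA+FYT minus Control ranged from -0.15 to 0.021 for Sod1 and -0.17 to 0.061 for Cat to Sod1. Cat to Sod1 ranged from -0.24 to 0.16 in NDEA minus Control, and Cat to Sod2 from -0.45 to 0.055 in NDEA+CFT-1 minus NDEA+FYT.

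The 0 genes called became, without the filter, 1 in NDEA minus Control, NDEA+CFT-1 minus Control and NDEA+FYT minus Control and 2 in injected minus Control. Library weights gave 19 in NDEA+CFT-1 minus NDEA, 1 in NDEA+CFT-1 minus NDEA+FYT and 3 in NDEA+CFT-1 minus Control, and scaling without both libraries gave 1 in NDEA+CFT-1 minus NDEA+FYT. With a library left out, counts ranged from 0 to 2 in NDEA minus Control and injected minus Control and from 0 to 1 in the others except NDEA+CFT-1 minus NDEA (0 throughout), and those above 0 came without Control replicate 2 or NDEA+FYT replicate 3.

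With the replicate block, 0 genes were called in all 7 comparisons, and log2 changes were as before (NDEA minus Control -0.14, 0.11 and -0.24 for Sod1, Sod2 and Cat). With the block and only the groups taken as paired from the data, NDEA+CFT-1 and Control, 0 genes were called and adjusted p was 0.866 for Cat.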
